A study of Mus musculus with 6 samples.

Results

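The genes with the highest signal in control mouse osteocytes were the 300 with the highest mean signal on the 3 control arrays, out of 18193 genes that had a probe set of a single gene symbol. A probe set is the group of short DNA probes on a microarray that reads a transcript, and its signal is a linear brightness. Each gene stood for its brightest probe set by the mean of the 3 arrays, and the genes were then ranked by that mean. The ranking compares probe sets that differ in their probes as well as in their transcripts, so a rank is a rank of signal and not of RNA molecules. Osteocytes are the cells that lie inside mineralised bone, joined to each other by long processes, and they descend from the osteoblasts that lay down bone matrix. They are known for sensing load and for control of mineral and of bone turnover, through secreted proteins such as sclerostin and Fgf23 and through mineral-regulating matrix proteins such as Dmp1.

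The series compared these control cells with osteocytes lacking estrogen receptor alpha, on 3 arrays each, and the 3 control arrays are described here. The control mice were female, of the C57/BL6 strain, aged 10 to 12 days by the sample labels, and they are described as wild-type littermates. The protocol names 10-day-old mice, which it also calls fetal, with floxed estrogen receptor alpha alleles that carried Dmp1-GFP, a green fluorescent protein driven by Dmp1 sequences. Whether the control mice carried a Cre transgene is not stated in the labels. Calvariae, the flat bones of the skull roof, had their sutures removed and went through 6 enzymatic digestions of 30 min each. Cells of fractions 4 to 6 were sorted for fluorescence, with 10% to 15% of cells in the gate for marked mice and 0.8% to 1.0% for unmarked mice. The Dmp1 driver is known to be active in mature osteoblasts as well as in osteocytes. The protocol speaks of calvarial tissue pooled from mice, while the design text of the series says that RNA was not pooled. The arrays are labelled as biological replicates, and the spread between them is given as the SD over 3 arrays, which is not the spread between single mice if tissue was pooled.

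The arrays differed in brightness. The median signal of all 45101 probe sets was 22.7, 20.5 and 18.7 on replicates 1, 2 and 3, and the mean of the probe sets left after removing the outer 2% at each end was 111, 99.2 and 92.5. Spike-in controls, which report RNA added in the laboratory, averaged 5083, 4558 and 4391 over 9 probe sets and so followed the same order. The ratio of the 3′ to the 5′ control probe set, a reading of RNA integrity and labelling, was 1.54, 1.93 and 1.61 for beta-actin and 0.753, 0.889 and 0.802 for Gapdh. The 300 genes held 32.7%, 32.9% and 33.0% of the signal summed over all genes. Of the 300, 285, 277 and 279 also lay within the top 300 of replicates 1, 2 and 3 taken alone.

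Among the gene groups within the 300, the cytosolic heat shock chaperones and the immediate early genes, are known for promoters that answer quickly to stimuli, and their promoter sequences are shown first. Heat shock factor is known to bind inverted repeats of the letters GAA. The motif GAANNTTC, which reads the same on both strands, was searched from 250 bases before to 50 bases after each start listed by RefSeq on the mouse build GRCm38.p6. It was present, at any listed start, for 9.04% of 27025 genes and for 7.58% of the genes on the arrays that had a promoter entry. It was present for 12.5% of the 256 genes of the 300 with an entry, and for 8 of the 8 chaperone genes with an entry. Of the other groups, 1 of 12 immediate early genes, 1 of 15 bone matrix genes and 3 of 31 ribosomal protein genes had it. A stricter form with 3 repeats was present for only 3 of the 8 chaperone genes, against 2.73% of the 256 and 0.662% of the 27025. The 10 chaperone genes of the 300 include Hspa8 and Hsp90aa1, which had no entry. The 8 are fewer than 8 separate stretches, since Hspd1 and Hspe1 share a stretch between them and Hspa1a and Hspa1b are near-identical, with 247 of 250 bases before the start the same. The stretches below hold a match to GAANNTTC before a listed start, written in capitals, with 15 bases on each side.
Hspa1a: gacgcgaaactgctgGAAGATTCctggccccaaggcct
Hspe1: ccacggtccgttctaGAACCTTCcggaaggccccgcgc
Dnaja1: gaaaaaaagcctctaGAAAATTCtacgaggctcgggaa
Cct2: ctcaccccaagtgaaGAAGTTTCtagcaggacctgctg
The Hspa1a stretch lies at chr17:34972238-34972275 on the minus strand, and its motif ends 96 bases before the start. Hspa1b has the same letters at chr17:34959320-34959357. The Hspe1 stretch lies at chr1:55088049-55088086 on the plus strand, and its motif ends 76 bases before the start of Hspe1. On the other strand the motif ends 131 bases before a listed start of Hspd1, and another listed start of Hspd1 had no match upstream. The Dnaja1 stretch lies at chr4:40722329-40722366 on the plus strand, and its motif ends 116 bases before a listed start. Other listed starts of Dnaja1 had no match upstream. The Cct2 stretch lies at chr10:117063395-117063432 on the minus strand, and its motif ends 34 bases before a listed start. Another listed start of Cct2 had no match upstream. For Hsph1 no match lay before a listed start. A match is a description of letters, and binding was not measured.

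The TATA box, written here as TATAAA on either strand, is a core promoter element close to the start of some genes. It was found in the same windows for 15.7% of all genes with a promoter entry and for 11.5% of the genes on the arrays with an entry. Among the 256 the share was 18.0%, and 5 of the 12 immediate early genes with an entry had the motif. It was found for 5 of 15 bone matrix genes, for 16.1% of the 31 ribosomal protein genes and for 0 of the 8 chaperone genes. The immediate early genes with a match on the gene's own strand close to the start read as follows, with the motif in capitals.
Fos: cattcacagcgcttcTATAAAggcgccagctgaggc
Btg1: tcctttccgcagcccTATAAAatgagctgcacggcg
Ccn1: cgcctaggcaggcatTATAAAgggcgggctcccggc
Gadd45b: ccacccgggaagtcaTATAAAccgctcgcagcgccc
These lie at chr12:85473842-85473877 on the plus strand for Fos, chr10:96616960-96616995 on the plus strand for Btg1, chr3:145649990-145650025 on the minus strand for Ccn1 and chr10:80930030-80930065 on the plus strand for Gadd45b. The motif ended 27 bases before the start of Fos, 20 before that of Btg1, 19 before that of Ccn1 and 40 before that of Gadd45b.

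The top of the ranking was held by bone matrix genes and by the translation machinery. Sparc, which encodes osteonectin, a secreted protein that binds collagen and mineral, ranked first with signals of 14588, 14253 and 14002 on replicates 1, 2 and 3, or 14281 ± 294 (SD, n = 3). Col1a2 and Col1a1 encode the chains of type I collagen, the main protein of bone. Col1a2 ranked 3 with 13763, 12817 and 13012, and Col1a1 ranked 7 with 11966, 11892 and 10818. Col3a1, the type III fibrillar collagen chain, ranked 4 with 13670, 12026 and 11850. Serpinf1, which encodes PEDF, a secreted protein whose loss causes brittle bone disease, ranked 5 with 12445, 12282 and 11349. On each of these genes the 3 arrays stood close together, and the highest array was 1.04 times the lowest for Sparc.

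Of the 30 highest genes, Rps29 ranked 2 with 14789, 13346 and 12246, and it encodes a small-subunit ribosomal protein. Eef1a1, the elongation factor that delivers tRNA to the ribosome, ranked 6 with 13041, 11314 and 11578. Tpt1, a widely expressed growth-related protein, ranked 9 with 11760, 10943 and 11287. Rpl38, Rplp0, Rps20, Rps3a1, Rplp2, Rps4x, Rps28, Rpl41, Rpl13a, Rps14, Rpl35, Rpl37a, Rps10 and Rps24 are the other ribosomal protein genes among the 30. Lgals1, which encodes a galactoside-binding lectin, ranked 12 with 11921, 10357 and 9703. Tmsb10, an actin-monomer-binding peptide, ranked 23 with 10536, 9607 and 9289. The remaining names are Pcolce, Hspa1b, Hspa8, Col5a2, Dcn and Lum, each described with its group below. None of the 30 had a highest array above 1.5 times its lowest, and in 24 of them the arrays lay within 1.25-fold.

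**Figure D1:**
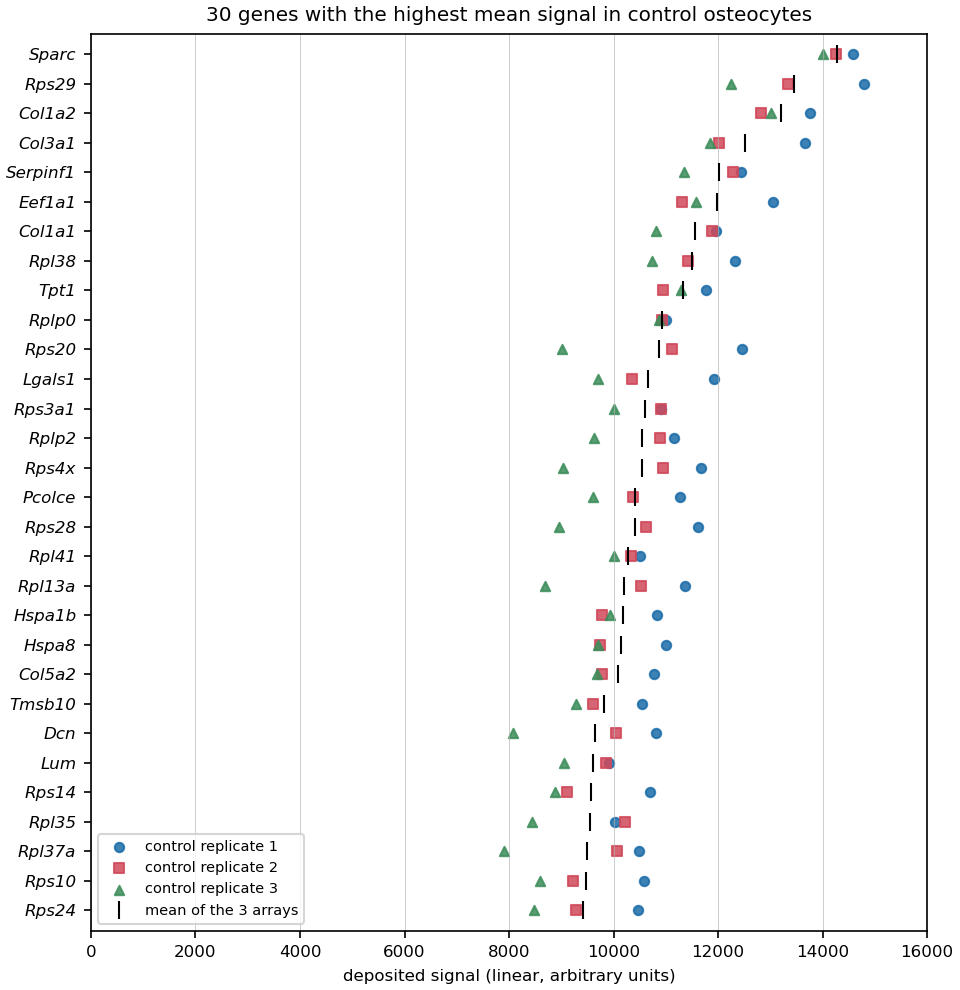
Signal of the 30 genes with the highest mean on the 3 control arrays, in rank order, with each array as a point and the mean as a tick (linear signal, arbitrary units). Sparc leads at a mean of 14281, and ribosomal protein and bone collagen genes take most of the places after it.

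The lower edge of the 300 was a gradual one. Cct2, a subunit of the cytosolic chaperonin, was the last but one at a mean of 2437, and Vasn, a secreted inhibitor of TGF-beta, ranked 300 at 2421. Just outside stood Septin7, a cytoskeletal GTPase, at 2417 and Anapc5, a subunit of the anaphase-promoting complex, at 2416. The median of all 18193 genes was 50.8. The 300 are 1.65% of all genes, and the count of each list within the 300 is read against that share.

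Of the 35 gene lists, 7 had no member among the 300. The cytosolic ribosomal proteins had the most, with 36 of 50 measured members, and bone collagen and matrix followed with 23 of 36. Cytosolic chaperones had 10 of 19, translation factors 14 of 31, immediate early genes 14 of 32, the RNA-binding and splicing list 14 of 34 and actin cytoskeleton 17 of 43. Each of those shares was many times the 1.65% of all genes. The lists were chosen with earlier results of these data known, so the shares are a description and no test. Lysosomal genes had 10 of 26, endoplasmic reticulum chaperones 8 of 22, collagen processing and secretion 14 of 53 and nuclear genes of the respiratory chain 18 of 83. The lists with none were the proteasome subunits (39 measured), the mitochondrial ribosomal proteins (73) and the markers of endothelial, neural and meningeal, lymphoid, neutrophil and erythroid cells. The median signal of the proteasome list was 651 and that of the mitochondrial ribosomal list 252, both above the 50.8 of all genes. In all, 209 of the 300 belonged to a list, 52 more to a group formed after their values were seen, and 39 to neither.

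**Figure D2:**
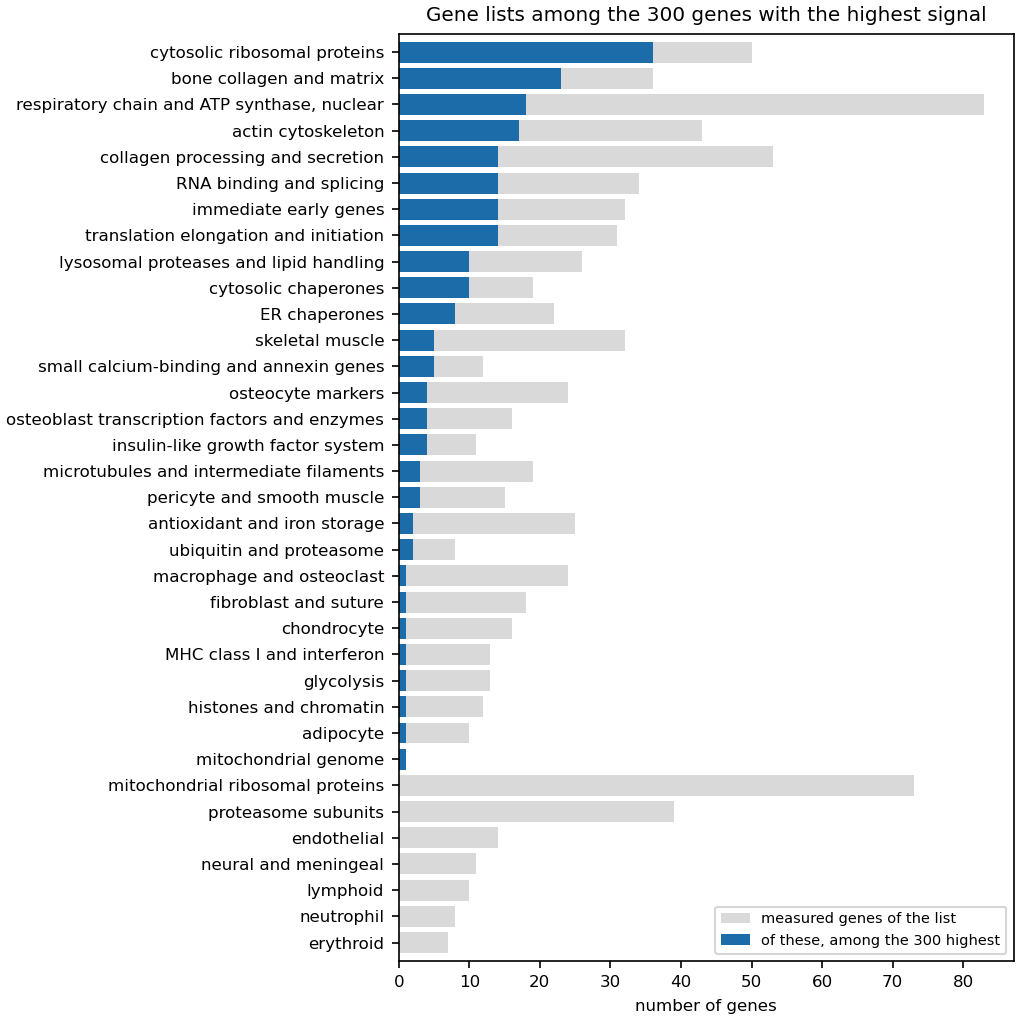
Number of each list's members among the 300 genes of highest signal, beside the number measured, for the lists of the control arrays. Cytosolic ribosomal proteins have 36 of 50 and bone collagen and matrix 23 of 36, against 1.65% of all genes.

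The bone matrix genes covered the fibrillar collagens, the small leucine-rich proteoglycans and the mineral-binding glycoproteins. Their 36 measured members had a median signal of 3932. Among the minor fibrillar collagens, which join type I collagen in mixed fibrils, Col5a2 ranked 22 with 10775, 9784 and 9678, Col5a1 ranked 106 with 5514, 5287 and 4837, and Col11a1 ranked 164 with 3993, 4222 and 2906. Col11a1 is also on the chondrocyte list, where it was the single member of 16 among the 300. Col6a3 and Col6a2, chains of the beaded-filament type VI collagen, ranked 124 and 136, and Col12a1, which lies on the fibril surface, ranked 298. The chain Col6a1 missed the 300 at rank 304.

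Small leucine-rich proteoglycans, which bind collagen fibrils, gave 7 of the 23 bone matrix genes within the 300. Dcn, decorin, ranked 24 with 10812, 10044 and 8084. Lum, lumican, ranked 25 with 9916, 9862 and 9051, and Bgn, biglycan, ranked 35 with 9520, 8910 and 8018. The deposited signals followed the same order on all of these, with replicate 1 highest and replicate 3 lowest, which is also the order of the array medians. Omd (osteomodulin), Fmod (fibromodulin), Ogn (osteoglycin) and Aspn (asporin), of the same family, lay at ranks 141, 189, 238 and 243. On these genes it was replicate 2 that was highest in Omd, Fmod and Ogn, and Aspn had 3345, 3283 and 1984.

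Among the matrix glycoproteins, Postn, the periosteal and suture protein periostin, ranked 45 with 9357, 8042 and 6837. Ibsp, the acidic bone sialoprotein that nucleates mineral, ranked 64 with 7237, 6082 and 6580. Mgp, the matrix Gla protein that inhibits calcification, ranked 110 with 5091, 4294 and 5757. Fn1, fibronectin, and Cthrc1, a secreted collagen-repeat protein, ranked 129 and 131. At the other end of the list, Dspp, the dentin precursor, was listed at 0.7, 0.8 and 0.5. None of the 23 list members among the 300 exceeded 2-fold between arrays, and their median coefficient of variation (CV, the SD divided by the mean) was 12.5%.

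The genes that fold, modify and export collagen were represented from the endoplasmic reticulum to the extracellular space. Pcolce, which enhances removal of the procollagen C-terminal peptide, ranked 16 with 11267, 10380 and 9609. Serpinh1, the collagen-specific chaperone Hsp47, ranked 39 with 9219, 9057 and 7284. Ppib, the prolyl isomerase cyclophilin B, ranked 83 with 6838, 5860 and 4857, and replicate 1 was highest in each of these genes. P4hb, the beta subunit of prolyl 4-hydroxylase, ranked 118, Ssr3 and Sec61b of the translocon ranked 126 and 166, and Lox, the enzyme that crosslinks collagen, ranked 179. Crtap, part of the prolyl 3-hydroxylase complex, ranked 290 with 2582, 2783 and 2072. Among the endoplasmic reticulum chaperones, Hspa5, known as BiP, ranked 58 with 7597, 7087 and 6124, and the transcription factor Xbp1, a regulator of secretory capacity, ranked 199.

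The labelled cell type was checked against the 5 marker genes of the set. Col1a1 and Dmp1 were within the 300. Dmp1, the matrix protein whose sequences drive the GFP marker, ranked 60 with 7983, 6084 and 6565. Rgs5, a regulator of G-protein signalling that is widely used as a pericyte marker, ranked 38 with 9350, 8236 and 8011. Phex, the osteocyte endopeptidase of phosphate control, lay outside the 300 at rank 432 with 2072, 1776 and 1805. Mepe, a matrix phosphoglycoprotein of osteocytes, lay at rank 9956 with 48.8, 14.3 and 46.2 on its single probe set, below the 50.8 of the median gene. Of these markers Dmp1 sequences drove the sort and Rgs5 is no defining gene of osteocytes, so their levels say little on the label, and Mepe was low on all 3 arrays.

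A wider list of 24 osteocyte genes had 4 within the 300 and a median rank of 1329. Besides Dmp1 they were Gja1, the gap-junction protein connexin 43, at rank 108 with 5931, 5489 and 4081, Sgms2, a sphingomyelin synthase, at rank 116 with 5691, 5002 and 3731, and Dstn, the actin-severing protein destrin, at rank 185. The early osteocyte genes Ptprz1, a receptor phosphatase, and Pdpn, the process-forming membrane protein podoplanin, ranked 914 and 1184. The Wnt inhibitor Dkk1 ranked 1002. A pair of genes that define late osteocytes were far lower in the order. Sost, which encodes sclerostin, lay at rank 6751 with 99.5, 54.4 and 147, and Fgf23, the phosphate hormone, lay at rank 16210 with 0.5, 1.4 and 9.2. In bulk RNA, fewer cells of a type and less RNA per cell cannot be told apart, and this holds for every gene here.

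Of 16 osteoblast genes, 4 were within the 300. Besides Serpinf1, these were the bone cadherin Cdh11 at rank 174, the transcription factor Atf4, which drives amino acid supply for matrix synthesis, at rank 208, and Ifitm5, the bone-restricted membrane protein BRIL, at rank 274. Atf4 gave 3352, 3301 and 3070, and Ifitm5 gave 2564, 2841 and 2379. Alpl, the alkaline phosphatase that frees phosphate for mineral, ranked 1142 with 880, 931 and 655. Sp7, the osteoblast transcription factor osterix, ranked 1450 with 734, 711 and 541. Esr1, the gene deleted in the other arm of the series, ranked 6861 with 115, 94.1 and 83.3.

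**Figure D3:**
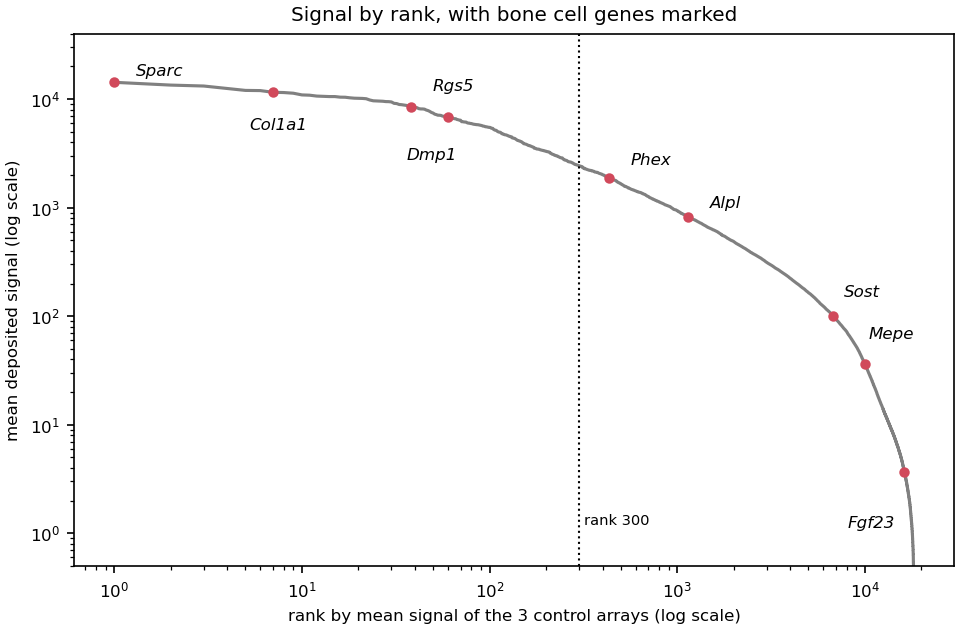
Mean signal of the 18193 genes against their rank on the 3 control arrays (both axes logarithmic), with 9 genes marked in red and a dotted line at rank 300. Col1a1 and Dmp1 sit among the 300, Phex at rank 432, and Sost, Mepe and Fgf23 at ranks 6751, 9956 and 16210.

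The 36 ribosomal protein genes were the largest group of the 300. The median signal of the 50 measured members was 6604, and 35 of the 36 were within the first 100 ranks. Rplp0, a protein of the ribosomal stalk, gave 11001, 10925 and 10866. Its CV of 0.618% was the lowest of the 300 on the deposited scale, where the array medians fell from 22.7 to 18.7. Rps18 ranked 54 with 7318, 7177 and 6808, and Rpl41 ranked 18 with 10500, 10325 and 10015. Rps20 gave 12454, 11127 and 9006, the widest deposited spread among the ribosomal genes of the 30. Its values fell in the order of the array medians. The median CV of the 36 was 8.99%, beside 7.74% for all genes of ranks 1 to 30 and 10.8% for ranks 31 to 100. None of the 36 exceeded 1.5-fold between arrays. Of the 14 outside the 300, Rps16 was listed at 0.2, 0.3 and 0.2 although it is a constituent of the ribosome in all cells, and Rpl39 gave 126, 58.4 and 99.9. Low signal of a single probe set is thus found for genes of this essential complex too, which limits what a low rank shows for genes such as Mepe. Whether the probes or the transcripts set those low values was not tested.

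Translation factors followed with 14 of 31. Eif4a1, the helicase that unwinds mRNA for initiation, ranked 155 with 3804, 3987 and 3776. It was among the 10 most even of the 300 on the deposited scale. The RNA-binding and splicing list, with 14 of 34, had its highest member at rank 107, the long non-coding RNA Xist, which silences an X chromosome in female cells and is not a protein. Its CVs within the 300 ran from 7.45% to 22.1%.

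The nuclear genes of oxidative phosphorylation had 18 of 83 members among the 300. Uqcrb, a subunit of complex III, ranked 47 with 8762, 6828 and 7925. Cox6a1, of cytochrome oxidase, ranked 53 with 7695, 6679 and 6947, and Cox7a2 of the same complex ranked 130 with 5278, 4012 and 4209. Replicate 2 was the lowest of the arrays for each of them, and so it was for Atp5b, the catalytic subunit of ATP synthase, with 4339, 2259 and 3360. The summed signal of the list was 164952, 123472 and 132601, and the median CV of its 18 members was 17.4%. Replicate 2 was also lowest for Slc25a4, the ADP/ATP carrier of heart and muscle, which gave 4166, 2509 and 3345. The mitochondrial genome was read by a single gene, ND5 of complex I, at rank 101 with 6772, 4486 and 5154. Glycolysis had 1 of 13, Aldoa at rank 295 with 2921, 1426 and 3035, while Ldha and Tpi1 ranked 439 and 665.

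The cytoskeleton was represented by cytoplasmic actins and their partners. Actb and Actg1, the cytoplasmic actins, ranked 46 and 50. Actb gave 8122, 7920 and 7733 and was among the 10 most even genes on the deposited scale. Vim, the intermediate filament protein vimentin, ranked 37 with 8592, 8706 and 8521, a CV of 1.09%. Tmsb4x, which sequesters actin monomers, ranked 69 with 6497, 5895 and 6822. Cald1, Tpm4 and Fscn1, proteins that bind or bundle actin filaments, ranked 167, 296 and 147.

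The cytosolic chaperones were led by the heat-inducible Hsp70 genes, whose promoters are printed above. Hspa1b ranked 20 with 10829, 9781 and 9928, and Hspa1a ranked 40 with 9808, 7788 and 7450. The pair encodes near-identical proteins. Whether each probe set also reads the transcript of the other gene was not tested, so their signals are not taken as separate. Hspa8, the constitutive Hsp70, ranked 21 with 10997, 9738 and 9696, and Hsp90aa1, the inducible Hsp90, ranked 42 with 9308, 7468 and 7712. Replicate 1 was highest on all of these. Below them, Hspb1, the small heat shock protein, gave 7725, 4252 and 7185, and Hsph1, a nucleotide exchange factor of Hsp70, gave 5123, 2609 and 3869. Dnaja1, a J-domain cochaperone, ranked 139 with 4822, 3648 and 4230. The mitochondrial folding pair Hspd1 and Hspe1 ranked 191 and 272, with replicate 2 lowest for both. The summed signal of all 19 measured chaperones was 83082, 63510 and 69394.

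Of the immediate early genes, which are transcribed within a short time of a growth factor or stress signal, 14 of 32 were among the 300. Fos, a subunit of the AP-1 factor, ranked 44 with 8441, 8299 and 7601. Nfkbia, the inhibitor of NF-kappaB, ranked 51 with 7088, 8061 and 6648, and Egr1, a zinc-finger factor, ranked 59 with 7865, 6471 and 6368. All arrays were high for these genes. Ccn1 and Ccn2, secreted matricellular proteins, ranked 72 and 160 and had replicate 2 lowest, with 7599, 4493 and 6481 for Ccn1. Jun, the partner of Fos, gave 7311, 5800 and 5321. Atf3, a stress-induced factor, gave 3272, 3381 and 3170. Its CV of 3.22% placed it among the 10 most even genes on the deposited scale. Btg1, Klf4, Dusp1, Gadd45b, Ier3, Klf6 and Mcl1 made up the rest, at ranks 111 to 283. No immediate early gene among the 300 exceeded 2-fold between arrays, and the summed signal of the list was 94268, 89550 and 83786.

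Lysosomal genes and growth factor genes were the next groups. Itm2b, a membrane protein that binds the amyloid precursor, ranked 31 with 9218, 9238 and 8954, and Cst3, the protease inhibitor cystatin C, ranked 115 with 4810, 5138 and 4743. Ctsl, the protease cathepsin L, ranked 170. In the insulin-like growth factor system 4 of 11 were within the 300, led by Igf2, the fetal growth factor, at rank 66 with 7080, 5996 and 6699. Of the binding proteins, Igfbp7 ranked 119 with 5355, 3456 and 5431 and was lowest on replicate 2, Igfbp5 and Igfbp4 ranked 145 and 255, and the growth factor Igf1 ranked 653. Among groups formed after the values were seen, the matrix proteases Mmp13, Fap and Mmp2 ranked 86, 99 and 134, and their inhibitor Timp1 ranked 234. Mmp13, a collagenase of bone, gave 6856, 5621 and 4957. In the same way Itm2a, a membrane protein of cartilage and bone, ranked 41 with 10330, 6390 and 8296, and Cpe and Ptn, a prohormone-processing enzyme and a heparin-binding growth factor, ranked 67 and 137.

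Markers of other cell types were read on the same arrays. The skeletal muscle list had 5 of 32 members among the 300, and their values split the arrays. Acta1, skeletal alpha-actin, gave 7669, 24.8 and 6380. Myl1, a fast-muscle myosin light chain, gave 8609, 41.4 and 7954, and Mylpf, the regulatory light chain, gave 7592, 20.1 and 6393. Tnnc2, fast troponin C, gave 5757, 18.0 and 4566. Replicates 1 and 3 were high and replicate 2 stood near or below the 50.8 of the median gene. Tpm2, a tropomyosin that is also on the actin list, gave 3308, 1534 and 3150. The summed signal of all 32 was 50062, 2171 and 42559, and 16 of the 32 were under a signal of 16 on replicate 2, against 0 on replicates 1 and 3. With the mean taken on the log2 scale, Acta1, Myl1, Mylpf and Tnnc2 left the 300, as did Aldoa, and Tpm2 did not.

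The pericyte and smooth muscle list had 3 of 15, which were Rgs5, Acta2 and Myl9. Acta2, smooth-muscle actin, ranked 78 with 8024, 2890 and 7092, and Myl9, the smooth-muscle myosin light chain, ranked 220 with 3660, 1544 and 3982. Rgs5 did not share this dip, since its 8236 on replicate 2 lay between the values of the other arrays. Among the 6 highest members of the list, Pdgfrb did not share it either, with 1849, 1587 and 1535. Tagln and Myh11 did, with 2318, 813 and 2582 for Tagln and 1136, 404 and 1437 for Myh11. The summed signal of the list was 30093, 18168 and 28014. The part of muscle or pericyte RNA in the values of the other genes was not tested.

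The macrophage and osteoclast list ran the other way. Its member among the 300 was Ctsk, the collagen-degrading protease of osteoclasts, at rank 190 with 3362, 4096 and 2663. Just outside, Csf1r, the receptor for the macrophage growth factor, ranked 314 with 784, 3250 and 2952, and Lyz1, lysozyme, ranked 361 with 731, 2964 and 2748. C1qa, a complement subunit made by macrophages, gave 262, 1115 and 1052. Replicate 1 was the low array for Csf1r, Lyz1 and C1qa. The summed signal of the 24 members was 8000, 20189 and 16973, and without replicate 1 the count within the 300 was 3, with Csf1r and Lyz1 added.

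A group of 15 chemokine and virus-response genes, formed after their values were seen, had 5 members among the 300, and replicate 1 was lowest for each of the 5. Cxcl2, a neutrophil-attracting chemokine, ranked 57 with 3092, 9258 and 8483. Rsad2, the antiviral enzyme viperin, gave 1555, 5423 and 6658, and Ccl3, a macrophage inflammatory chemokine, gave 1064, 4188 and 5132. Ccl4, of the same family as Ccl3, gave 1016, 4410 and 4784, and Cxcl1 gave 3873, 6750 and 6579. The summed signal of the 15 was 15718, 42785 and 44811. B2m, the light chain of MHC class I, was the 1 of 13 MHC and interferon genes within the 300, with 4032, 5642 and 4434, and that list summed to 9459, 14622 and 13834. Since the group was chosen for its values, its low replicate 1 beside that of the macrophage list is a description, and the part of macrophage RNA in these values was not tested.

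**Figure D4:**
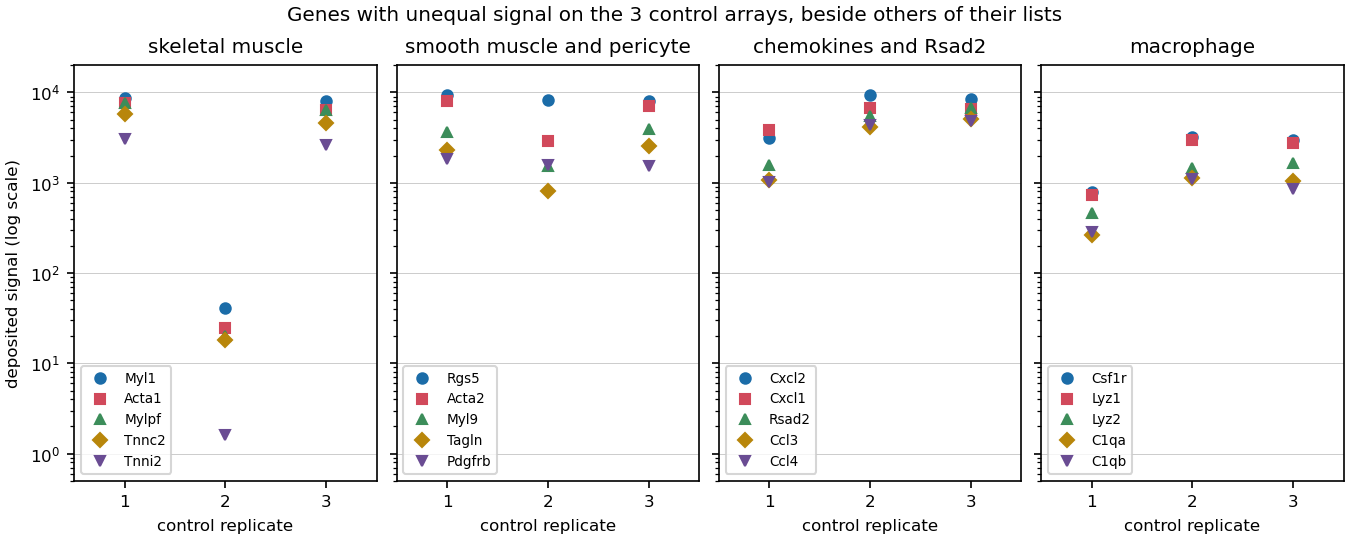
Signal on each control array (logarithmic axis), with 1 point per gene and array, for genes of skeletal muscle, smooth muscle and pericytes, chemokines with Rsad2, and macrophages. The skeletal muscle genes are low on replicate 2, the chemokine and macrophage genes are low on replicate 1, and Rgs5 and Pdgfrb are near level. Acta1 reads 7669, 24.8 and 6380, and Ccl3 reads 1064, 4188 and 5132.

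Other lists gave little. The single members within the 300 were Gsn, the actin-severing gelsolin, of 18 fibroblast and suture genes, Car3, carbonic anhydrase 3, of 10 adipocyte genes and Hmgn1, a nucleosome-binding protein, of 12 histone and chromatin genes. Car3 ranked 55 with 8344, 7103 and 5786, while the median signal of the adipocyte list was 17.2. The summed signal was between 770 and 1131 over 14 endothelial genes, between 112 and 139 over 10 lymphoid genes, between 236 and 273 over 7 erythroid genes and between 796 and 1716 over 8 neutrophil genes. None of these members was at 0 on any array. The endothelial adhesion genes Pecam1 and Cdh5 stood at means of 30.2 and 35.5.

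The evenness of the 3 arrays was measured by the CV of each gene. Across the 300 the median CV was 12.6%, with quartiles of 8.82% and 17.8%, against 24.2% for all genes. It was 7.74% for ranks 1 to 30, 10.8% for ranks 31 to 100, 14.7% for ranks 101 to 200 and 13.7% for ranks 201 to 300. Ranks 301 to 1000 had 14.3% and ranks 1001 to 5000 had 15.8%. Of these bands the first 30 ranks were thus the most even in the deposited values. On the deposited scale replicate 1 was the highest array for 217 of the 300 and replicate 3 for 16. After each array was divided by its median the numbers became 77 for replicate 1, 119 for replicate 2 and 104 for replicate 3. The median CV became 7.79%. Genes called most even were picked on the deposited scale. A gene that is level there does not follow the array medians, so its place can change once the arrays are scaled.

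Of the 300, 127 lay within 1.25-fold across arrays, 44 exceeded 1.5-fold and 14 (4.67%) exceeded 2-fold. The share above 2-fold was 6.43% for ranks 301 to 1000, 7.08% for ranks 1001 to 5000 and 34.3% for all genes, which include many near the lowest signals. The 14 fell into a group of 10 with replicate 2 lowest and a group of 4 with replicate 1 lowest. The first held Acta1, Acta2, Myl1, Mylpf, Myl9, Tnnc2, Tpm1, Tpm2, Aldoa and Nrep, a gene of wound fibroblasts and nerve repair with 3836, 1850 and 2595. The second held Cxcl2, Rsad2, Ccl3 and Ccl4. None of the 14 had replicate 3 lowest. Without replicate 2 the number above 2-fold was 4, and without replicate 1 it was 7. For a given gene this ratio can only stay or fall when an array is left out, and the 300 were chosen anew each time.

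Correlation between arrays is given as a description over genes, which are not independent replicates. On log2(signal + 16), Pearson's r over all 18193 genes was 0.966 for replicates 1 and 2, 0.980 for 1 and 3 and 0.973 for 2 and 3. Within the 300, whose range of signal is narrower, it was 0.494, 0.884 and 0.528 for the same pairs. Without the 5 skeletal muscle genes, over 295 genes, it was 0.857, 0.883 and 0.906. Spearman's rho within the 300 was 0.800, 0.900 and 0.839 for the same pairs, so the gap between pairs was wider in Pearson's r, which follows the size of the few large differences.

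**Figure D5:**
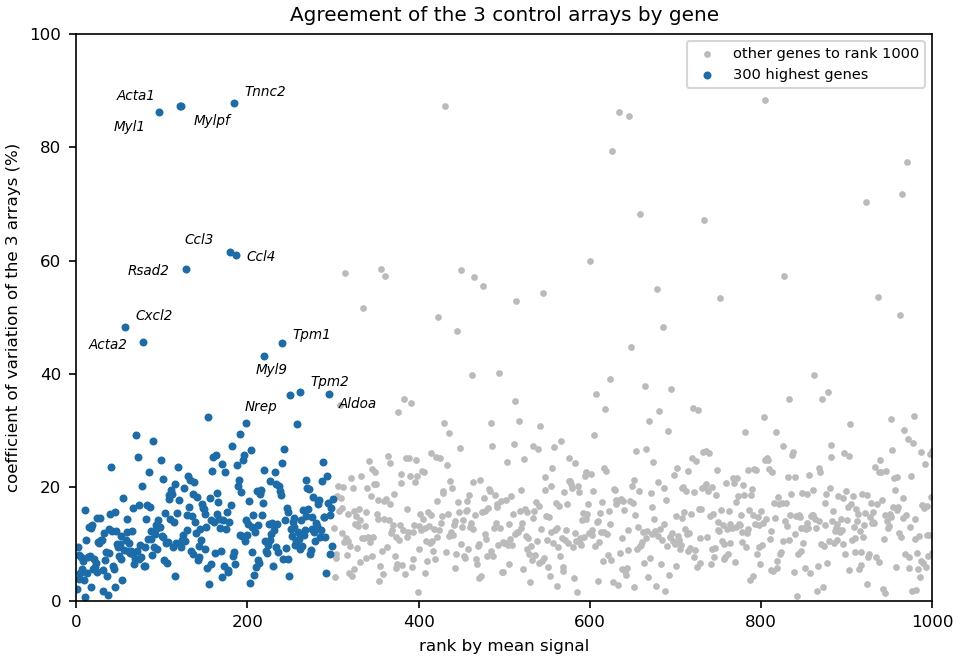
Coefficient of variation of the 3 control arrays (percent) against the rank by mean signal, with 1 point per gene, for the 300 highest genes and for ranks 301 to 1000. The 14 labelled genes exceed 2-fold between arrays, and Acta1, Myl1, Mylpf and Tnnc2 stand highest of the 300, at CVs of 86.2% to 87.9%.

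Other probe sets of the same genes show how far a rank depends on the probes. Of the 300 genes, 219 had more than 1 probe set, and in 81 of these the next brightest also reached the signal of rank 300. The median of the next brightest over the brightest was 52.3%, with quartiles of 21.4% and 81.5%, and it was under 10% in 41 genes. For Dmp1 the 3 probe sets averaged 6877, 4994 and 2112, and for Rgs5 the 4 averaged 8532, 2049, 1023 and 395. For Tpt1 the other probe set averaged 2.07 and for Rps4x 1.80. For Pik3cd, a catalytic subunit of phosphoinositide 3-kinase known from white blood cells, rank 194 rested on a probe set at 3359 while each of the other 5 averaged 26.1 or less. Among the 300, 19.3% were read by probe sets with the suffix _x_at, which may also bind other transcripts, against 3.83% of all genes. In the ribosomal protein group 12 of the 36 were of this kind. Without the probe sets ending in _s_at or _x_at, 19 of the 30 highest genes were still among the first 30. Rps29, Rpl38, Rps20, Rpl41, Rps14, Rps24 and Tmsb10 of the 30 left the 300, and so did the ribosomal genes Rps2 and Rps9. With the mean of all probe sets of a gene, 18 of the 30 were still among the first 30.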

How the data were processed

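Whole-genome mouse arrays with 45101 probe sets were hybridised with biotin-labelled RNA, starting from 5 µg per array. The deposited values are linear signal intensities per probe set, made by the authors with GCOS per the submitters' processing notes. For the background correction, summary method, scaling target and detection calls, details were not given in the sources used here, and no saturation flag was used. The trimmed means of the arrays differed, so the deposited values were used as they stand.

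The 64 spike-in and other array control probe sets were set aside. Of the others, 34945 had 1 gene symbol in the platform annotation, 932 several and 9160 none. Symbols were updated through the Entrez ID for the 34741 found in the RefSeq table. This gave 18193 genes, 9010 of them with 2 or more probe sets, and each gene took the probe set with the highest mean of the 3 control arrays. Ranks, lists and CVs were computed with Python 3.11.15, pandas 2.3.3, numpy 2.4.6 and scipy 1.17.1, and figures with matplotlib 3.10.9. The calculations were tested on simulated data. Only 1 group was used, so no test between groups was made, and the number of arrays limits the precision.

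The members and lists were chosen with earlier results of these data known. By rule the named genes were the 30 highest, up to 6 highest of each list, the 10 most even and the 10 most uneven of the 300, the genes on either side of rank 300 and the 5 markers. Other named genes, and 7 groups of genes that stood in no list, were chosen after their values were seen. Promoter sequences are those of RefSeq on GRCm38.p6. Spp1, Bglap and Runx2 had no probe set of a single symbol and were not analysed here, and protein sequences were not used here. Alternatives were other scalings, leaving out each replicate, other ways of choosing or averaging probe sets, the median or log2 mean of arrays, older symbols, a filter on low genes and other sizes of the top group. Scaling by the spike-in controls was added after seeing the data.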

Additional observations from a re-analysis of the deposited data

How the results depend on the processing

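The membership of the 300 depended little on scaling and much on the choice of probe set. Quantile normalisation and division by the median, trimmed mean or spike-in mean of each array each replaced 1 of the 300 genes, Vasn, by Anapc5, and leaving out a replicate shared 289 to 293. The mean of all probe sets of a gene shared 230, and leaving out probe sets ending in _s_at or _x_at shared 242. The median CV of the 300, 12.6% as reported, was 8.17% after quantile normalisation, 7.79% and 7.88% after division by the array median and trimmed mean, 8.67% with the spike-in mean and 8.55% to 13.3% with a replicate left out. The number of genes above 2-fold, 14 as reported, was 4 to 12 with a replicate left out, and the 4 was without replicate 2. Leaving out an array can only keep or lower the ratio of a given gene. The number was 9 with the genes ranked on the mean of log2(signal + 16) or log2(signal + 1). Among the first 100 genes there were 11 bone matrix genes, 5 chaperones, 5 immediate early genes and 1 skeletal muscle gene, since fewer genes were taken. The counts of the other lists were within 1.5 times in 200 of 240 comparisons. No paired analysis was possible because the control arrays alone were used and no test was made. Signal per probe set gives no count of molecules, so depth cannot be stated.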

Other observations

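Probe sets that name no single gene also reached the signal of the gene at rank 300. Of the probe sets at or above that signal, 419 had 1 gene symbol, 131 had several and 38 had none, so the 300 genes leave out bright probe sets whose gene cannot be told from the annotation.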
